A study of Mus musculus with 8 samples.

Results

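The killer lectin receptor genes Klrd1, Klrc1, Klre1, Klrk1, Klrb1c and Klrg1 were followed through natural killer (NK) cells and T cells of mouse hepatoma tumours. They are 6 of the 2000 genes of a pooled single-cell expression table and were taken by name, with earlier results of these data known. Hepa1-6, a mouse hepatoma cell line, was grown as tumours that were unedited (WT) or Soat1-edited, named knockouts in the titles and knockdowns in the genotype field, and animals received PBS or a PD1 antibody by intraperitoneal injection. Soat1 encodes a cholesterol-esterifying enzyme, and PD-1 is an inhibitory receptor of T cells. The host strain and age, and whether an edited line was 1 clone, are not given in the sources used here. The 4 groups appear in 8 entries, a cDNA and an oligo entry each, but nothing ties the 53528 cells to a group. The cells divide into 6 sets by the last number of their names, the sets were treated as unassigned samples, and no effect of the editing or the antibody is given. Values and shares therefore describe 1 pooled sample, with the range over sets, and no p-value was computed.

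Klrd1 encodes CD94, which pairs at the cell surface with NKG2A, the product of Klrc1, to form an inhibitory receptor for the non-classical class I molecule Qa-1. Klrk1 encodes NKG2D, an activating receptor for stress-induced ligands that signals through small adaptor proteins. Klre1 encodes a lectin-like partner of the Klri1 and Klri2 products, Klrb1c encodes the NK1.1 antigen of NK cells, and Klrg1 encodes an inhibitory receptor for cadherins. These receptors are known from NK cells, and CD8 T cells gain several of them after activation.

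In the RefSeq gene table (GRCm38.p6) all 6 genes lie on chromosome 6. Klre1, Klrd1, Klrk1 and Klrc1 fall within 123 kilobases, in that order, Klrb1c lies 771 kilobases before Klre1, and Klrg1 lies a further 6.50 megabases away. The RefSeq promoter table held 4 of the 6 genes, and Klrd1 and Klrg1 are named only. The 150 bases before the start site are shown because of a contrast in level. Klrc1, Klre1 and Klrk1 were high in both NK and CD8 T cells, and Klrb1c in NK cells alone of the 4 classes. Each sequence is in lower case from 5′ to 3′ on the gene's strand, and capitals mark matches on either strand to the RUNX core TGTGGT, the T-box core GGTGTGA, the ETS core AGGAAG or the STAT palindrome TTCNNNGAA. For Klre1, which has 2 listed starts, the window of the downstream start is shown. The gene spans were 129666015 to 129682852 for Klrc1 and 129559365 to 129585828 for Klre1, so the windows of both lie inside their genes.
Klrc1 (chr6:129678974-129679123, minus strand): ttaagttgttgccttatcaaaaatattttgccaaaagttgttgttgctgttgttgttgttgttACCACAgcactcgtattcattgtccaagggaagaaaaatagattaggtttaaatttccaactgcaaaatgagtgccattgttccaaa
Klre1 (chr6:129578136-129578285, plus strand): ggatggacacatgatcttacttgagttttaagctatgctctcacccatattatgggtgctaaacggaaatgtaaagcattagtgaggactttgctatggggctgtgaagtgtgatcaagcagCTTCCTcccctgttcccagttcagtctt
Klrk1 (chr6:129623865-129624014, minus strand): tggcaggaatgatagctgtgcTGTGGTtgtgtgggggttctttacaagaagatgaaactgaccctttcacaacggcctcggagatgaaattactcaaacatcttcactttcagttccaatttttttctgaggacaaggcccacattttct
Klrb1c (chr6:128788642-128788791, minus strand): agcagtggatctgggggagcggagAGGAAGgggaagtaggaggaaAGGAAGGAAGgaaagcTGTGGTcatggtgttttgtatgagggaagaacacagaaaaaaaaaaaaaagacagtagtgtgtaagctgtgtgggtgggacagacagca

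The RUNX core occurred once each in the windows of Klrc1, Klrk1 and Klrb1c, and 8.40% of 32851 promoter windows of the same length held it. The ETS core occurred 3 times in the Klrb1c window, where 2 of the matches overlap, and once in the Klre1 window shown, against 19.7% of all windows. The T-box core and the STAT palindrome, held by 1.92% and 4.09% of all windows, matched none of these windows. The window of the other Klre1 start held no match to any of the 4 motifs. These are matches of letters, with no measurement of binding.

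Classes were gated without the 6 receptor genes, at a deposited value above 0.5 for each marker. NK cells had Ncr1 and neither Cd3g nor Cd3d, and numbered 204. CD8 T cells had Cd3g or Cd3d with Cd8a or Cd8b1 and numbered 10405, CD4 T cells had Cd4 in place of Cd8 genes and numbered 738, and regulatory T cells had Foxp3 and numbered 286. Each set held 16 to 64 NK cells, 1040 to 2670 CD8 T cells, 62 to 204 CD4 T cells and 35 to 70 regulatory T cells. In set 1, where UMI counts were recovered, all 10 NK markers of the list were found in the NK gate, Ncr1 by the gate itself. All 10 also had UMIs in CD8 T cells, and the list summed to 12284 CPM in NK cells against 2023 in CD8 T cells. Of 8 T cell markers Cd3g and Cd3d, which the gate removed, and Trac were at 0, and the other 5 summed with them to 960 CPM, against 5385 in CD8 T cells. Among these, Trbc1, a T cell receptor beta constant gene, had 413 CPM in NK and 554 in CD8 T cells, Trbc2 had 196 and 2188, and Cd8a had 2 UMIs. CPM stands for UMIs per 1000000 UMIs of the class. Of 10 hepatoma marker genes, 7 had UMIs in NK cells and Apoa2, Fabp1 and Serpina1a were at 0; the list summed to 2622 CPM there, against 1108 in CD8 T cells, where all 10 had UMIs; the part of this RNA, and of the T cell RNA, in the results was not tested. Dendritic cell markers summed to 165 CPM in these NK cells, macrophage and B cell markers to 92.9 each, and mast cell and neutrophil markers were at 0.

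Klrd1, Klrc1, Klre1 and Klrk1 were high in both NK and CD8 T cells, lower in CD4 T cells and at or near 0 in regulatory T cells. Klrb1c was high in NK cells, and Klrg1 was highest in regulatory T cells. The plot of mean values by class and set shows these levels in each set, with 1 departure in set 3, where Klrc1 was lower in NK than in CD4 T cells.

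**Figure D1:**
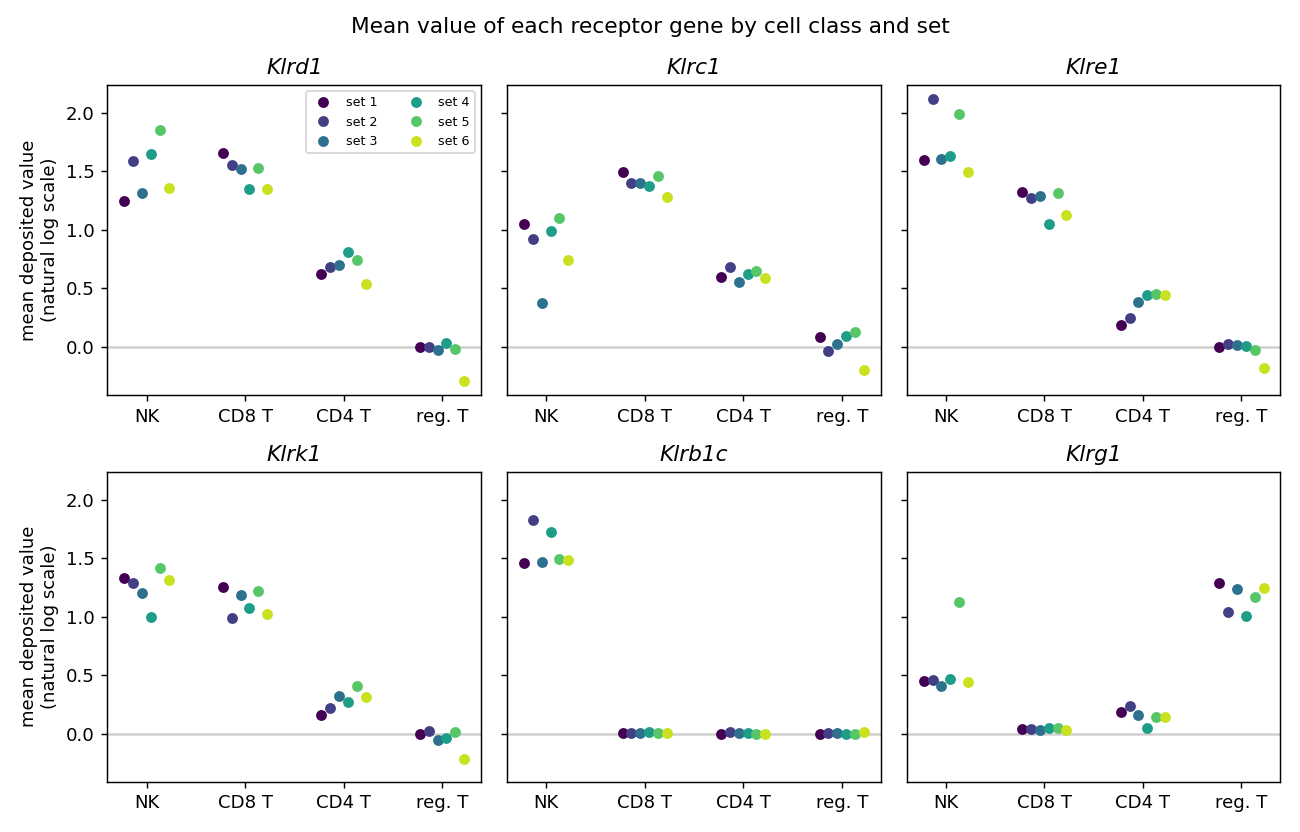
Mean deposited value (natural log scale, vertical axis) of each receptor gene in NK, CD8 T, CD4 T and regulatory T cells, with 1 point per set. Klrb1c is high in NK cells alone of the 4 classes, between 1.46 and 1.83, and Klrg1 is highest in regulatory T cells, between 1.00 and 1.28.

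Klrd1, the common partner chain, had set means in NK cells between 1.25 and 1.85 (median 1.47). In CD8 T cells they lay between 1.35 and 1.66 (median 1.53). These 2 ranges overlap, and NK cells were above CD8 T cells in 4 of the 6 sets; over the pooled cells the higher of these 2 classes changed from NK to CD8 T cells at a marker cut of 0.25 and with a broader NK gate of 3 of 10 NK markers. A Klrd1 value above 0.5 was nevertheless found in fewer of the pooled NK cells, 68.6%, than of the CD8 T cells, 81.0%. Set means of CD4 T cells ran from 0.54 to 0.81, below the CD8 T cells of the same set in 6 of 6 sets. Regulatory T cells ran from -0.29 to 0.03.

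Klrc1, the inhibitory NKG2A chain, had its highest mean value in CD8 T cells in 6 of 6 sets. Set means lay between 1.28 and 1.5 there (median 1.4) and between 0.37 and 1.10 in NK cells (median 0.96). The ranges do not overlap. Set 3, with 16 NK cells, gave the lowest NK value, and its CD4 T cells, at 0.55, stood above its NK cells. A value of Klrc1 above 0.5 was found in 79.6% of CD8 T cells (95% Clopper-Pearson interval 78.8 to 80.4) and 46.1% of NK cells (39.1 to 53.2). These intervals, and those of pooled shares below, treat cells as independent and leave out the variation between sets.

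Klre1 went the other way. Its mean value in NK cells ran from 1.49 to 2.12, with a median of 1.62, and in CD8 T cells from 1.05 to 1.32, with a median of 1.28. NK cells were higher in 6 of 6 sets, and the ranges do not overlap. Klrk1, the activating NKG2D receptor, ran from 1.00 to 1.41 in NK cells and from 0.99 to 1.25 in CD8 T cells, so the 2 classes overlap, with NK cells higher in 5 of 6 sets.

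Klrb1c had NK mean values from 1.46 to 1.83 and stayed between -0.01 and 0.02 in the 3 T cell classes. It was above 0.5 in 68.1% of NK cells and 0.567% of CD8 T cells. Klrg1 ran from 1.00 to 1.28 in regulatory T cells, with a median of 1.20, from 0.41 to 1.12 in NK cells, from 0.05 to 0.24 in CD4 T cells and from 0.03 to 0.05 in CD8 T cells. Regulatory T cells were highest in 6 of 6 sets, although the NK cells of set 5, at 1.12, came within 0.05 of them. Over all 36 pairs of gene and set, 33 had the same highest class as the 6 sets pooled.

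Summed UMI counts of set 1, with doublet calls left out, put these patterns on a scale with a true zero. They came from 21 NK, 1029 CD8 T, 61 CD4 T and 36 regulatory T cells, with median depths of 5007, 5168, 3243 and 4447 UMIs. Intervals are exact Poisson intervals at the 95% level that cover counting error only, and the variation between so few NK or regulatory T cells is not in them. Each gene is compared between classes, not with the other genes.

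Klrd1 had 454 CPM in NK cells (330 to 610) and 566 in CD8 T cells (548 to 583), a ratio of 0.803 (0.583 to 1.08). Klrc1 had 382 (269 to 526) and 499 (483 to 516), a ratio of 0.765 (0.538 to 1.06). For both genes the interval includes equality, so no difference was detectable at this depth, and with a broader NK gate that asks for 3 of 10 NK markers the log2 ratio of Klrd1 turned from -0.32 to 0.19. Klre1, at 568 (428 to 739) and 389 (374 to 404), was 1.46 times as high in NK cells (1.10 to 1.91). Klrk1, at 516 (383 to 680) and 346 (332 to 360), was 1.49 times as high (1.10 to 1.97). With a marker cut of 0.25 both ratios reversed, to log2 values of -0.17 and -0.13, and those of Klrd1 and Klrc1 fell to -0.99 and -1.09.

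**Figure D2:**
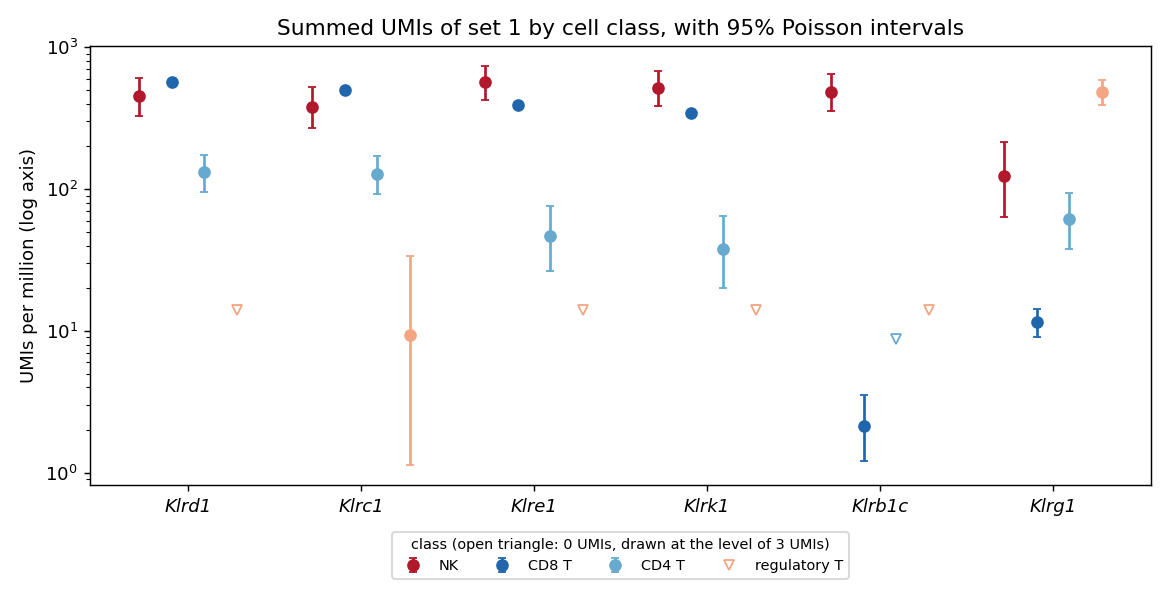
CPM of each receptor gene (log axis) in the 4 cell classes of set 1, with 95% Poisson intervals; an open triangle marks 0 UMIs and stands at the level of 3 UMIs. Klrd1, Klrc1, Klre1 and Klrk1 lie between 346 and 568 in NK and CD8 T cells, and Klrg1 reaches 481 in regulatory T cells against 11.5 in CD8 T cells.

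Klrb1c had 485 CPM in NK cells (356 to 645) and 2.15 in CD8 T cells (1.20 to 3.55), 225 times as high (124 to 434). Klrg1 had 124 in NK (64.0 to 216) and 11.5 in CD8 T cells (9.10 to 14.3), 10.8 times as high (5.35 to 19.9). As a mean over cells instead of a sum, the log2 ratio of Klrg1 was 4.34 in place of 3.32. These were the 2 of 6 receptor genes at least 2-fold higher in NK than in CD8 T cells, where 26.9% of the 1227 genes with 10 or more UMIs passed that limit. None of the 6 was 2-fold higher in CD8 T cells, against 12.2% of the genes.

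CD8 T cells stood above CD4 T cells by at least 2-fold for 4 of the 6 receptor genes, against 10.6% of 1237 genes. Klrk1, with 13 UMIs in CD4 T cells, had a ratio of 9.14 (5.34 to 17.2), and Klre1, with 16 UMIs, 8.35 (5.13 to 14.6). Klrd1 and Klrc1, with 131 and 128 CPM in CD4 T cells, had lower ratios of 4.32 (3.22 to 5.93) and 3.90 (2.90 to 5.38). As means over cells the Klrd1 and Klrc1 log2 ratios were 1.48 and 1.34 in place of 2.10 and 1.95. For Klrg1 the order was reversed, with a CD8 to CD4 ratio of 0.188 (0.115 to 0.320), past 2-fold lower as were 11.6% of the genes.

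Against regulatory T cells, 4 of the 6 were again at least 2-fold higher in CD8 T cells, where 8.72% of 1227 genes were. Klrd1, Klre1 and Klrk1 had 0 UMIs in the 36 regulatory T cells. This allows a share of up to 8.33% of cells with a UMI and sets no limit on cells that express the gene below detection. On a floor of 3 UMIs over the class they were at least 40.3-fold, 27.7-fold and 24.7-fold higher in CD8 T cells. Klrc1 had 2 UMIs there, a ratio of 53.4 (14.8 to 441). In sets 2 to 6, values above 0.5 were found in up to 12.0% of regulatory T cells for Klrd1 and 18.6% for Klrc1, on a scale that an unrecorded step had changed. Klrg1 was the reverse, with 481 CPM in regulatory T cells (393 to 584) and a CD8 to regulatory T ratio of 0.0239 (0.0176 to 0.0323), past 2-fold lower as were 15.6% of the genes.

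The remaining comparisons rest on 21, 61 and 36 cells. NK cells were at least 2-fold above CD4 T cells for all 6 receptor genes, where 25.4% of 633 genes were and 22.4% were 2-fold lower; for Klrg1 the ratio of 2.03 has an interval that includes equality (0.909 to 4.31). NK cells were at least 2-fold above regulatory T cells for 5 of the 6, against 24.3% of 575 genes, and Klrg1 was lower, at a ratio of 0.257 (0.129 to 0.469), as were 29.2% of the genes. CD4 T cells were at least 2-fold above regulatory T cells for Klrd1, Klrc1, Klre1 and Klrk1, where 13.2% of 668 genes were, and Klrg1 was lower, at 0.127 (0.0754 to 0.204), as were 16.8%. Klrb1c had 0 UMIs in CD4 and regulatory T cells. Against the floor its NK ratios were 55.6 and 34.6, and the exact intervals had lower limits of 43.5 and 27.1.

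Hepatoma cells and macrophages are not known as sources of NKG2A or CD94, and the origin of their UMIs was not tested. In the first random draw of 1000 UMIs per cell, Klrd1 was detected in 44.5% of CD8 T cells and 0.295% of 679 hepatoma cells, against 84.0% and 5.01% unthinned at median depths of 5168 and 23576 UMIs. Macrophages held 1.11% of cells with a Klrd1 UMI and 2.22% with a Klrc1 UMI at a median of 2924 UMIs. The Klrd1 UMIs numbered 31 in 5 macrophages, 18.1 CPM (12.3 to 25.7), and the Klrc1 UMIs 10 in 10 macrophages. Klrk1 stood apart in macrophages, with 78 UMIs, 45.5 CPM (36 to 56.8), in 11.8% of 450 cells, and with 8.91% to 14.2% of macrophages above 0.5 over the 6 sets. That level was close to the 37.8 CPM of CD4 T cells (20.1 to 64.7), and 4.44% of macrophages held a Klrk1 UMI in that draw.

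Among other killer lectin receptors, 11 were in the table and 10 had enough UMIs to compare between NK and CD8 T cells. Of these, 8 were at least 2-fold higher in NK cells, where 26.9% of all genes were, and none in CD8 T cells, with a median log2 ratio of 5.51 against 0 over all genes compared. Klra4, a Ly49 receptor gene, had 506 CPM in NK cells and 1.00 in CD8 T cells. Klrb1b, an inhibitory relative of Klrb1c, had 289 and 7.03. Klri2, whose product pairs with that of Klre1, did not follow them, with 92.9 in NK cells (42.5 to 176) and 144 in CD8 T cells (135 to 153). Klri2 was 2.74 times as high in CD8 as in CD4 T cells (1.72 to 4.64) and at 0 UMIs in regulatory T cells, the arrangement seen for Klrd1, Klrc1, Klre1 and Klrk1. Genes of the Klra, Klrb1 and Klrc families are similar in sequence, and reads may have been split between copies, so single members are uncertain.

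**Figure D3:**
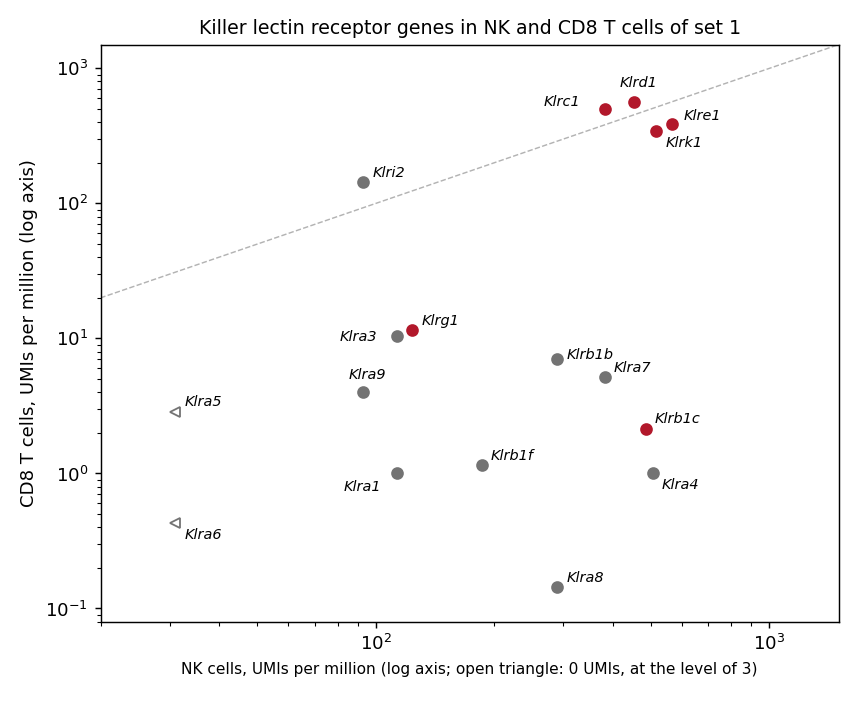
Level of each killer lectin receptor gene in NK cells (horizontal) and CD8 T cells (vertical) of set 1, in CPM on log axes; red points are the 6 receptor genes described here, grey points the others of the family, open triangles genes at 0 UMIs in NK cells drawn at the level of 3 UMIs, and the dashed line equality. Klrd1, Klrc1, Klre1, Klrk1 and Klri2 lie near the line, while Klrb1c, Klrg1 and the Klra genes with NK counts lie far below it.

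Of 5 adaptor and signalling genes, Tyrobp and Fcer1g were at least 2-fold higher in NK cells and Sh2d1a in CD8 T cells, where 26.9% and 12.2% of all genes were. Tyrobp, which encodes the adaptor DAP12, had 908 CPM in NK cells and 4.02 in CD8 T cells, a ratio of 226 (146 to 359). Fcer1g, which encodes the Fc receptor gamma chain that NK1.1 signals through, had 537 and 15.2. Sh2d1a, which encodes the adaptor SAP, went the other way, with 51.6 and 129, a ratio of 0.401 (0.130 to 0.940). The T cell kinase genes Lck and Zap70 had ratios of 0.536 (0.292 to 0.902) and 0.506 (0.218 to 1.00), and the 5 genes had a median log2 ratio of -0.90. Of 7 other NK receptors, 2 were past the limit in NK cells, against 26.9% of all genes. They were Ncr1, whose level the gate fixed, and Fcgr3, an Fc receptor gene with 2 UMIs in NK cells and a ratio of 6.26 (0.715 to 25.3). Cd226 and Cd160 were not past the limit, with ratios of 1.20 (0.706 to 1.90) and 0.764 (0.306 to 1.58). Of 16 effector genes, 4 were at least 2-fold higher in NK and 3 in CD8 T cells, where 26.9% and 12.2% of all genes were, so the NK count is near the background. The 4 were Gzma, Gzmc, Xcl1 and Ccl5, with ratios of 34.9, 17.8, 3.34 and 3.63. Of the ligand list, H2-K1 and Clec2g were in the table; H2-K1 was not past the limit, and Clec2g had too few UMIs to compare.

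Profiles over the 24 points of 4 classes and 6 sets were described by Pearson's r. The points are not independent, since each set gives a point for every class. Klrd1, Klre1 and Klrk1 had r from 0.93 to 0.97 with each other. Klre1 had 0.75 with Klrb1c and 0.74 with Klrc1, and Klrk1 had 0.61 and 0.83 with these genes. The gene closest to Klrd1 was Klrk1, the gene closest to Klrk1 was Klre1, and the gene closest to Klre1 was Prf1, the perforin gene, with Klrk1 next to it. Klrc1 was closest to Cd226, an activating receptor (0.96), and then to Jaml (0.91) and Klrd1 (0.90). Prf1 stood at 0.97 with Klre1 and 0.94 with Klrk1, and Ctsw, a cathepsin gene of cytotoxic cells, at 0.95 with Klrk1. Klrb1c was closest to the granzyme gene Gzma (r above 0.99), Tyrobp and Klra4, and Klrg1 to the integrin gene Itgb7 (0.95) and the chemokine receptor gene Ccr2 (0.88). The classes set most of these values, since 4 class levels make up the 24 points.

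Detection of the receptor genes together was examined in the 1029 CD8 T cells of set 1. Without matching depth, 47.8% of the cells held UMIs of all 4 of Klrd1, Klrc1, Klre1 and Klrk1, and 2.53% held none. The cells with all 4 had a median of 7088 UMIs and those with none 1994, so depth moved with the count. Cells were therefore thinned to 1000 UMIs in 20 random draws, and medians and ranges over draws are given. A draw left Klrd1 in a median of 43.1% of cells, Klrc1 in 37.8%, Klre1 in 34.0% and Klrk1 in 30.4%.

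At that depth the 4 genes were detected together slightly more often than independence gives. Odds ratios of other gene pairs were not computed, so whether this is particular to these genes was not tested. All 4 were found in 2.33% of cells (1.55% to 3.21% over draws), where independence of the 4 gives 1.73% (1.49% to 1.96%), and none in 19.5% (16.9% to 20.5%) against 16.1% (14.9% to 17.4%). The odds ratio of the 6 pairs had medians from 1.16, for Klrc1 with Klre1, to 1.37, for Klrd1 with Klrk1. It exceeded 1 in all 20 draws for 2 pairs, Klrd1 with Klrc1 and Klre1 with Klrk1, and in 18 or 19 draws for the other 4. Its own 95% interval lay above 1 in 3 to 12 of the 20 draws, so a single draw does not settle a pair. At 2000 UMIs, with 138 cells left out, all 6 pairs exceeded 1 in every draw, with median log2 odds ratios from 0.36 to 0.67.

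**Figure D4:**
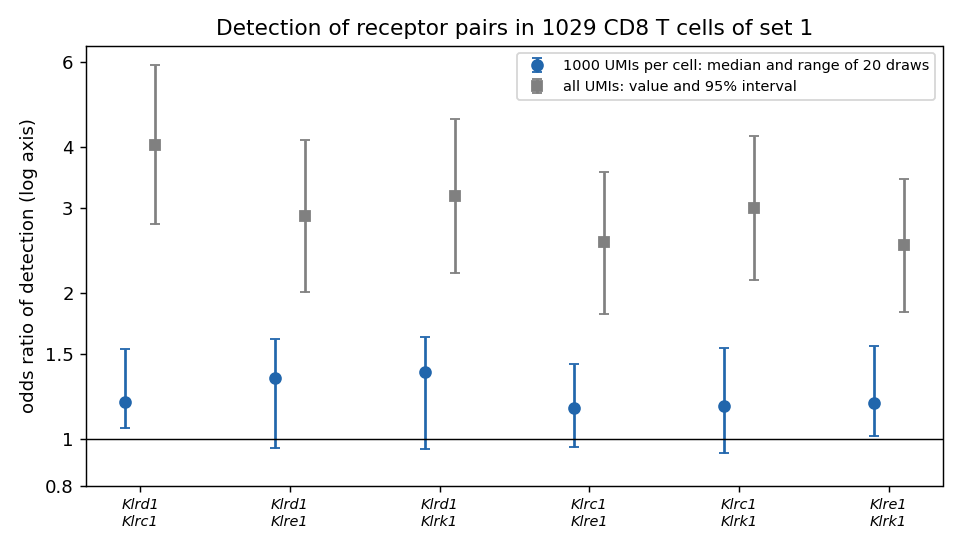
Odds ratio (log axis) of detecting 1 receptor gene given the other in 1029 CD8 T cells of set 1, for the 6 pairs. Blue points give the median and range over 20 draws of 1000 UMIs per cell, from 1.16 to 1.37, and grey squares the value and 95% interval from all UMIs, from 2.51 to 4.05.

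On the deposited scale the correlation between the 4 genes across CD8 T cells of a set was weak. Its lowest value over pairs and sets was 0.06, for Klrc1 with Klre1 in set 5, and its highest 0.26, for Klrd1 with Klre1 in set 4. Cells of a set differ in depth, the labels do not say what the cells of a set share, and the cause of these values was not tested. For Klrd1, Klrc1, Klre1 and Klrk1, the other genes of the table were ranked by their ratio between CD8 T cells with and without a UMI of it. Of the 48 genes so listed in the first draw none was listed in 10 or more of the 20 draws, so no gene is named from this ranking.

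The 4 genes were compared between CD8 T cells with and without genes of 7 states, at 1000 UMIs per cell and, not thinned, as deposited values by set. Klrd1 was lower in cells with a UMI of the cycling genes Mki67, Top2a, Birc5, Ube2c, Cdk1 or Cenpf, with a median ratio of 0.739 (0.675 to 0.857 over draws) and an interval below 1 in 19 of 20 draws. On the deposited scale this was not repeated, with cycling cells above the others in 4 of 6 sets. Klrd1 was higher in cells with Cxcr6, Itgae or Itga1, genes of tissue residence, with a ratio of 1.30 (1.12 to 1.42) and an interval above 1 in 19 draws. On the deposited scale all 4 genes were higher in these cells in 6 of 6 sets, Klrd1 by 0.47 to 0.67, Klrc1 by 0.21 to 0.38, Klre1 by 0.22 to 0.40 and Klrk1 by 0.19 to 0.34. All 4 were also higher in cells with Pdcd1, the gene of PD-1, in 6 of 6 sets on that scale, Klrd1 by 0.19 to 0.54, Klrc1 by 0.20 to 0.42, Klre1 by 0.13 to 0.24 and Klrk1 by 0.08 to 0.36. Thinned, the Pdcd1 ratios had medians from 1.03 to 1.09, with an interval above 1 in 6 draws for Klrd1 and at most 1 for the others. Set 1 cells with the residence genes had a median of 4615 UMIs against 6374, and those with Pdcd1 4861 against 5580; the part of depth in the deposited differences was not tested. For the residence genes Klre1 had a thinned ratio of 1.26 (1.05 to 1.45), with an interval above 1 in 14 draws, and Klrk1 was higher in cells with Xcl1, at 1.32 (1.07 to 1.68), in 10 draws. Klrc1 had an interval above or below 1 in at most 3 draws for each of the 7 states. Deposited values of Klrc1 were nevertheless higher in 6 of 6 sets with the residence genes and Pdcd1, as above, and with Havcr2, by 0.07 to 0.19.

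**Figure D5:**
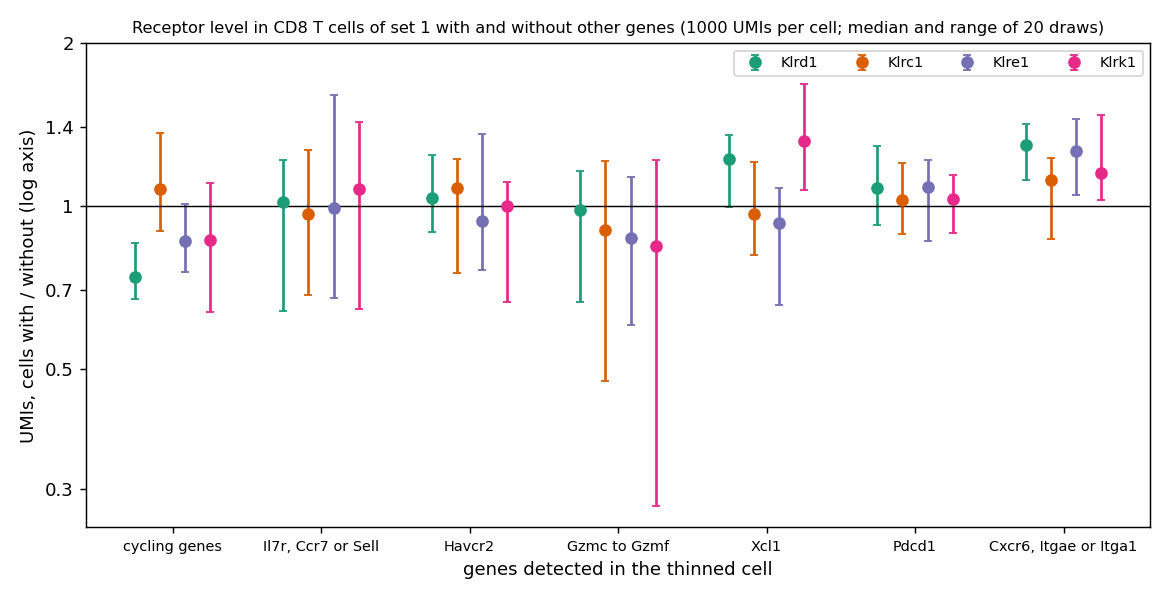
Ratio (log axis) of the level of Klrd1, Klrc1, Klre1 and Klrk1 between CD8 T cells of set 1 with and without UMIs of other genes, at 1000 UMIs per cell, as the median and range over 20 draws. Klrd1 lies below 1 for the cycling genes, at 0.739, and above 1 for Cxcr6, Itgae or Itga1, at 1.30, while most other ranges cross 1.

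Klrg1 marked few CD8 T cells, 4.37% over all sets (2.69% to 5.50% per set). In 6 of 6 sets, CD8 T cells with Klrg1 above 0.5 had higher mean values of Gzmb, by 0.34 to 0.78, of Gzmk, by 0.06 to 0.42, of Ccr2, by 0.16 to 0.67, and of Havcr2, by 0.10 to 0.44, than those without. The transcription factor gene Ikzf2, by 0.09 to 0.44, and the cycling gene Mki67, by 0.002 to 0.26, were also higher in 6 of 6 sets. Prf1 and Gzma were higher in 4 of 6. Klrc1, Klrk1, Cxcr6 and Tox were lower in 6 of 6 sets, Klrc1 by 0.01 to 0.45. The other residence genes did not follow Cxcr6, with Itgae higher in 5 of 6 sets and Itga1 in 4 of 6. The Klrg1 cells of set 1 had a median of 8950 UMIs against 5075; the part of depth in these differences was not tested.

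Klrg1 was above 0.5 in 53.1% of regulatory T cells (47.2 to 59.0), from 47.1% to 61.1% over sets. In 6 of 6 sets regulatory T cells with Klrg1 had more Gzmb, an effector protease, with mean values from 1.37 to 1.88 against 0.69 to 1.62 without it. Ccr2 was higher in 5 of 6 sets and Foxp3 in 2 of 6. Set 1 regulatory T cells with Klrg1 had a median of 4568 UMIs and those without 3225.

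CD4 T cells held Klrd1 above 0.5 in 46.5% of cells (42.8 to 50.2), from 33.9% in set 1 to 52.1% in set 6. In 6 of 6 sets the CD4 T cells with Klrd1 had higher Klrc1, by 0.40 to 1.01, Klre1, by 0.27 to 0.56, Klrk1, by 0.27 to 0.58, Prf1, by 0.11 to 0.46, Nkg7, by 0.30 to 0.90, and Ifng, by 0.31 to 0.97. The granzyme genes did not share this, with Gzmb higher in 2 of 6 sets, by -0.35 to 0.05, and Gzmk in 3 of 6. Il7r, a survival receptor of resting T cells, and the chemokine gene Ccl5 were lower in 6 of 6. Cd4 was higher in 4 of 6 sets and the NK adaptor gene Tyrobp in 1 of 6. Cd8a differed by -0.01 to 0.09, where the gate had removed cells with Cd8a above 0.5. Set 1 medians were 3108 and 3243 UMIs.

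NK cells were divided by Klrc1. In 6 of 6 sets the NK cells with Klrc1 above 0.5 had lower Klra4, by 0.44 to 1.95, and lower Klra7, by 0.05 to 0.90, both Ly49 receptor genes. Gzmc was higher in 6 of 6, with mean values from 0.83 to 1.67 against 0.00 to 0.62, as were Cd226 and Cd160. Other effector genes differed from Gzmc. Gzma, Gzmb and Ccl5 were each higher in 1 of 6 sets, Prf1 in 2 of 6 and Xcl1 in 5 of 6. Klrd1, the partner chain, was higher in 4 of 6 sets, with a difference from -0.41 to 0.92. Each side of this division held 6 to 36 cells per set. The genes named for these 4 divisions were chosen after their values were seen.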

How the data were processed

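Single cells of tumours were sequenced at transcript 3′ ends with a droplet kit. Per the labels' protocols and the submitters' processing notes, the authors aligned reads with STAR 2.7.2b, chose cells with barcodeRanks of DropletUtils and counted UMIs with PISA; the design text names GRCh38 and the notes list GRCh38 and mm10, so the build is unsettled. In set 1 a deposited value is the natural log of 1 plus UMIs per 10000 UMIs of the cell. The 53528 columns of cells belong to no known sample. Set 1 totals were recovered for 100% of 9370 cells (tolerance 1e-06) and ran from 1001 to 261833, with a median of 11099; the 2000 genes took 15.0% of them. Negative values in all cells of sets 2 to 6, from a step not given in the sources used here, left their counts out of reach. Without the set number, 12741 of 22421 cell names occur in 2 or more sets; the names are serial numbers, not barcodes. Scrublet (scanpy 1.11.5) called 91 set 1 cells doublets (0.971%).

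The authors' values were used as deposited. Cells with a mean hepatoma marker value above 1, or above 0.5 for another lineage, left the gates. Hepatoma cells and macrophages were gated by mean marker values above 1.5 and above 1. Levels were computed as summed UMIs over summed totals, with log2 ratios at a pseudocount of 1 CPM for genes with 10 or more UMIs in both classes together, and classes at 0 set to a floor of 3 UMIs. Ratio intervals are exact conditional Poisson. The steps were tested on simulated data with Python 3.11.15, numpy 2.4.6 and scipy 1.17.1.

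The 6 genes and the lists were chosen with earlier results of these data known. The 6 genes are all named; rankings followed a fixed rule. The marker cut, the exclusion limits, the floor, the state definitions and the use of 20 thinning draws were settled after values had been seen; the draws replaced a single draw because single draws disagreed on which pairs had an interval above 1. Genotypes and treatments were not compared.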

Additional observations from a re-analysis of the deposited data

Results flagged for a closer look

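Of 24 pairs of receptor gene and cell class, 4 had a set far from the other 5, by the gap to the nearest set as a share of the whole range, and chance flags about 1 in 20 such groups. In regulatory T cells, set 6 had the lowest mean value of Klrd1, at -0.29, of Klre1, at -0.18, and of Klrk1, at -0.22, on the deposited scale. Klrc1 was also lowest there in set 6, at -0.20. In the same set, 12% of regulatory T cells had Klrd1 above 0.5 and 10% had Klrk1, the highest shares of the 6 sets. For Klre1 and Klrc1 the set 6 shares were 4% and 10%, below the highest, 7.14% and 18.6%. The low means of Klrd1 and Klrk1 therefore do not show fewer cells with these genes. In NK cells, set 5, with 18 cells, had a mean Klrg1 value of 1.12, where the other sets ran from 0.41 to 0.46, and 55.6% of its NK cells had Klrg1 above 0.5.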

How the results depend on the processing

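The counts of receptor genes past 2-fold higher in NK than CD8 T, in CD8 T than CD4 T and in CD8 T than regulatory T cells stayed within 1.5 times the reported count under each alternative run, with the broader NK gate giving 3 genes higher in NK than in CD8 T cells in place of 2. No gene was 2-fold higher in CD8 T than NK cells, but Klrc1 was at a marker cut of 0.25, with a log2 ratio of -1.09. The comparisons of NK with CD4 T and regulatory T cells and of CD4 T with regulatory T cells were not run under alternatives. The log2 ratio of NK to CD8 T cells reversed with a marker cut of 0.25 for Klre1, to -0.17, and for Klrk1, to -0.13; the cause was not tested. Of the other values of single genes, 16 moved outside their counting interval and 144 did not; the 144 include the Klrb1c values of CD8 T against CD4 T and regulatory T cells, which are at 0 by the floor rule and could not move. The NK to CD8 log2 ratio of Klrb1c, 7.27, was 6.10 with a pseudocount of 5 CPM, 6.19 after thinning and 6.54 at a marker cut of 0.25. After thinning, the CD8 to CD4 value of Klrg1 went from -2.31 to -3.76. Thinning also lowered the CD8 to regulatory T log2 ratios of Klrd1, Klre1 and Klrk1 against the floor to 3.04, 2.48 and 2.26. The floor of 3 UMIs grows as the total shrinks. As a mean over cells, the CD8 to regulatory T value of Klrg1 went from -5.27 to -5.95. The number of pairs out of 6 with an odds ratio above 1 in every draw, 2 at 1000 UMIs per cell, was 6 without thinning and 6 at 2000 UMIs. In the unthinned value, more UMIs per cell make detection go together with depth by construction. At 2000 UMIs the draws share more of each cell's UMIs, which by itself makes them differ less. The same highest class as in the pooled cells was found in 27 to 33 of 36 pairs of gene and set under the alternatives. The pooled highest class of Klrd1 itself changed from NK to CD8 T cells at a marker cut of 0.25, with cells of other lineages kept and with the broader NK gate. Marker cuts for set 1 counts, the broader NK gate, the second lineage marker for the class order and the repeated draws were added after the data were seen. No paired analysis was possible because no column could be tied to a group or a numbered replicate, and for the same reason no replicate was left out. The number of cells in set 1 limits the NK and regulatory T values, with 21 and 36 cells, and CD4 T cells had the lowest median depth of the 4 classes, 3243 UMIs.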
